A study of Homo sapiens with 6 samples.

Results

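The genes studied here encode enzymes that make purine, pyrimidine and deoxynucleotides in H460 cells, an established line derived from human large cell lung carcinoma. Members are those of a list of 36 gene names, and each was read from its brightest probe set that carries a single gene symbol. Of the 36 genes 34 were measured, among 18417 genes on the array, whereas NME1 and ADSS2 lacked such a probe set and were dropped. All 34 were brighter than the median probe set.

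RNA was measured on 6 arrays, 1 per condition, after 16 h of incubation in medium with 0.5% fetal calf serum. Normoxic cells received DMSO (0.1%, the solvent) or 100 nM BAY 87-2243. The study describes this small molecule as an inhibitor of hypoxia-induced gene activation. It also reports that the compound inhibits complex I of the mitochondrial respiratory chain. Hypoxic cells (1% pO2) received DMSO, 100 nM of the compound, or a lower dose on 2 further arrays. The labels of these 2 arrays contradict each other: the array titled 10 nM has 1 nM as its source name, and the array titled 1 nM has 10 nM. They are named by title here, and no order of dose was drawn from them. All conditions share this 1 cell line, and no condition was repeated, so the differences below are not backed by replicates and carry no p-value. A gene is counted when 2 arrays differ by at least 1.5-fold, or 2-fold where stated. The gene lists were chosen with earlier results of these data known. Their counts beside the shares of all genes are therefore a description and not a test. The 2 arrays with 100 nM were the closest pair, and between them 95% of the genes brighter than the median probe set lay within 1.28-fold. The keratins KRT8, KRT18 and KRT19 were bright on all arrays, as in an epithelial line, whereas the epithelial markers EPCAM and CDH1 lay below the median probe set (EPCAM between 63.8 and 76.7).

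Cells build purines stepwise on phosphoribosyl pyrophosphate (PRPP) until inosine monophosphate (IMP) is formed, which is then turned into AMP or GMP. Pyrimidines are made as a ring first, from carbamoyl phosphate and aspartate to orotate, which UMPS joins to PRPP to give UMP, the source of CTP and thymidylate. DHODH, which oxidizes dihydroorotate, lies in the inner mitochondrial membrane and hands its electrons to ubiquinone of the respiratory chain, so this step is tied to mitochondrial respiration. Ribonucleotide reductase then converts ribonucleotides to deoxynucleotides, and salvage enzymes recover bases and nucleosides made before. Many of the genes of both de novo pathways are known targets of the transcription factor MYC, and AK4 is known as a hypoxia-inducible gene.

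Of the 5 genes of de novo pyrimidine and CTP synthesis, CAD, DHODH, UMPS and CTPS1 were at least 1.5-fold lower in hypoxia than in normoxia with DMSO, and at least 1.5-fold higher when 100 nM of the compound was present in hypoxia. CTPS2 passed this size in neither comparison. By at least 1.5-fold, 8 of 34 genes were lower in hypoxia (23.5%), namely CAD, DHODH, UMPS, CTPS1, UCK2, GART, PPAT and SHMT1, while the share over all genes was 11% and over the brighter genes 15.5%. After quantile normalization 5 of 34 were lower by that size, without PPAT, CAD and SHMT1. The share of all genes was not counted after that step, so whether the excess remains cannot be read from this count. Only AK4 and GUK1 were at least 1.5-fold higher in hypoxia (2 of 34, against 8.9% of all and 7.6% of the brighter genes). With 100 nM in hypoxia 6 of 34 were at least 1.5-fold higher than with DMSO (17.6%, against 4.97% of all and 6.86% of the brighter genes), namely CAD, UMPS, CTPS1, GART, UCK2 and DHODH, and AK4 alone was lower by that size (against 5.7% of all and 4.2% of the brighter genes). The median log2 difference of the 34 genes was -0.25 for hypoxia against normoxia and 0.17 for 100 nM against DMSO in hypoxia, where the medians of all genes were 0.08 and -0.04. At 2-fold the counts were small, with UMPS lower and AK4 higher in hypoxia (3.67% of all genes were lower and 1.67% higher) and none past 2-fold with 100 nM in hypoxia (1.01% lower, 0.766% higher). A dimmer probe set of AK4 was under 2-fold in hypoxia (log2 difference 0.82).

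Both of these comparisons use the same hypoxic DMSO array, which was the lowest of the 6 arrays in 19 of 34 genes (55.9%, against 22% of all and 30.5% of the brighter genes). When the array titled 10 nM took its place, 2 genes in place of 8 were 1.5-fold lower in hypoxia and 2 in place of 6 were higher with 100 nM. These 2 were CAD and UMPS in both cases. The shares of all genes were not counted for this replacement. The cells of that array had also received the compound, so its dose and the spread between arrays cannot be told apart.

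**Figure D1:**
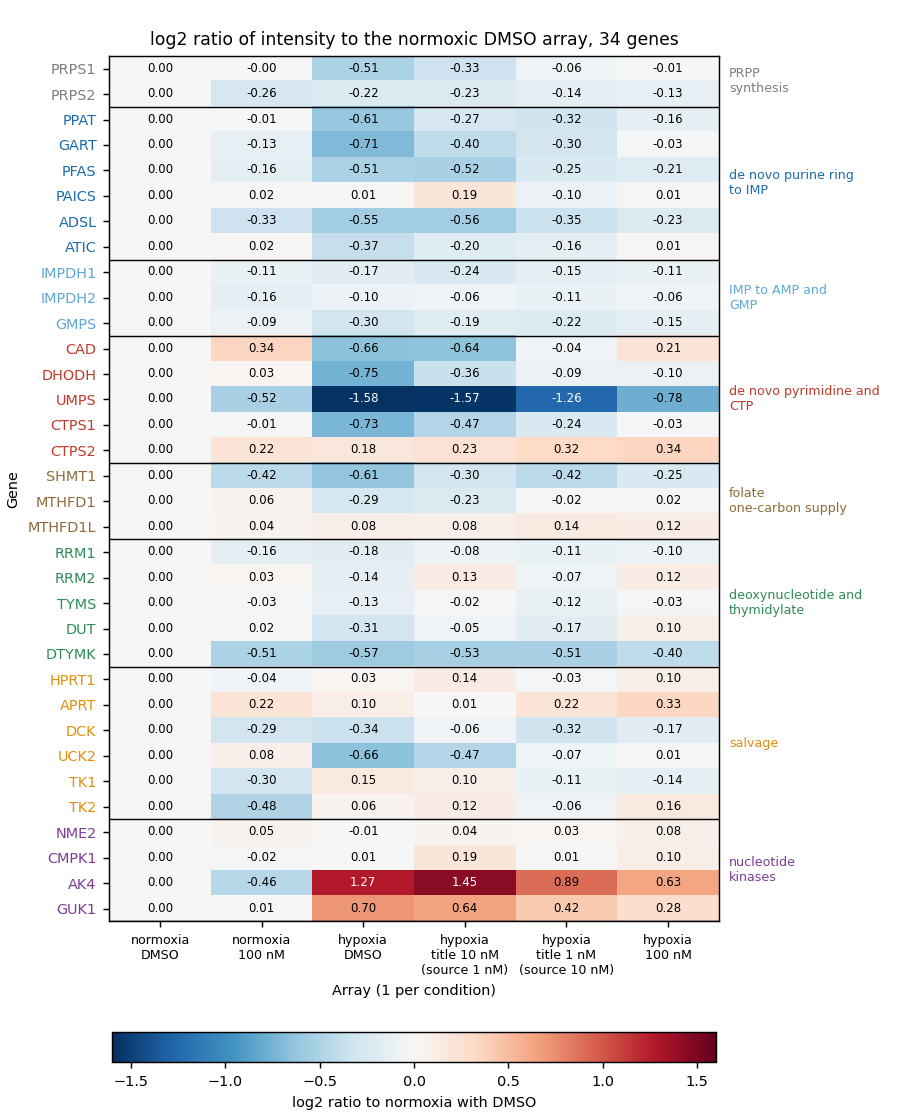
Log2 ratio of the intensity of each of 34 nucleotide synthesis genes (rows, coloured by role) to the normoxic DMSO array, on 6 arrays (columns, 1 per condition); the first column is 0 by construction. The blue block of CAD, DHODH, UMPS and CTPS1 on the hypoxic DMSO array, with UMPS lowest, stands against the red row of AK4. CTPS2 (0.18) and GUK1 (0.70) are among the other rows that are higher there.

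CAD encodes the protein that carries the first 3 activities of pyrimidine synthesis. Its intensity was 1355 in normoxia with DMSO and 1715 in normoxia with 100 nM. In hypoxia it was 858 with DMSO, 870 on the array titled 10 nM, 1314 on the array titled 1 nM and 1572 with 100 nM. The lowest intensities were those with DMSO and with the lower dose titled 10 nM in hypoxia, and both arrays with 100 nM lay above the normoxic DMSO array. The log2 difference was -0.66 for hypoxia with DMSO and 0.87 for 100 nM in hypoxia, the largest increase with the compound among the 34 genes.

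DHODH stood at 531 and 541 in normoxia without and with 100 nM. In hypoxia its intensities were 315 with DMSO, 414 on the array titled 10 nM, 499 on the array titled 1 nM and 495 with 100 nM. Its lowest intensity was on the hypoxic control array, and the value on the array titled 1 nM lay beside that with 100 nM. Its log2 differences were -0.75 for hypoxia and 0.65 for 100 nM in hypoxia, and the latter was 0.26 against the array titled 10 nM.

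UMPS, which completes UMP, had the largest hypoxic decrease of the 34 genes. In normoxia its intensity was 1005 with DMSO and 700 with 100 nM, against 337, 338, 420 and 585 in hypoxia with DMSO, on the array titled 10 nM, on the array titled 1 nM and with 100 nM. All 4 hypoxic arrays were below both normoxic arrays. Its log2 difference was -1.58 for hypoxia, and with 100 nM it was 0.80 in hypoxia but -0.52 in normoxia, so that hypoxia and normoxia differed by -0.26 when both held the compound.

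CTPS1 makes CTP from UTP, and CTPS2 is its paralog. CTPS1 was at 2880 and 2851 in normoxia without and with 100 nM, and at 1742, 2076, 2442 and 2815 in hypoxia with DMSO, on the arrays titled 10 nM and 1 nM and with 100 nM. All 4 of its hypoxic intensities lay below the normoxic ones, that with 100 nM by little. CTPS2 was lowest in normoxia with DMSO (1080) and highest in hypoxia with 100 nM (1370), a log2 difference of 0.18 for hypoxia and 0.16 for 100 nM in hypoxia, so the low hypoxic level of CTPS1 was not seen for its paralog. UCK2, which phosphorylates uridine and cytidine in salvage, followed the pattern of CTPS1, except that with 100 nM in hypoxia it passed the normoxic DMSO level. It stood at 5084 and 5375 in normoxia, and at 3213, 3666, 4838 and 5137 on the hypoxic arrays in the same order (log2 differences -0.66 for hypoxia and 0.68 for 100 nM).

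**Figure D2:**
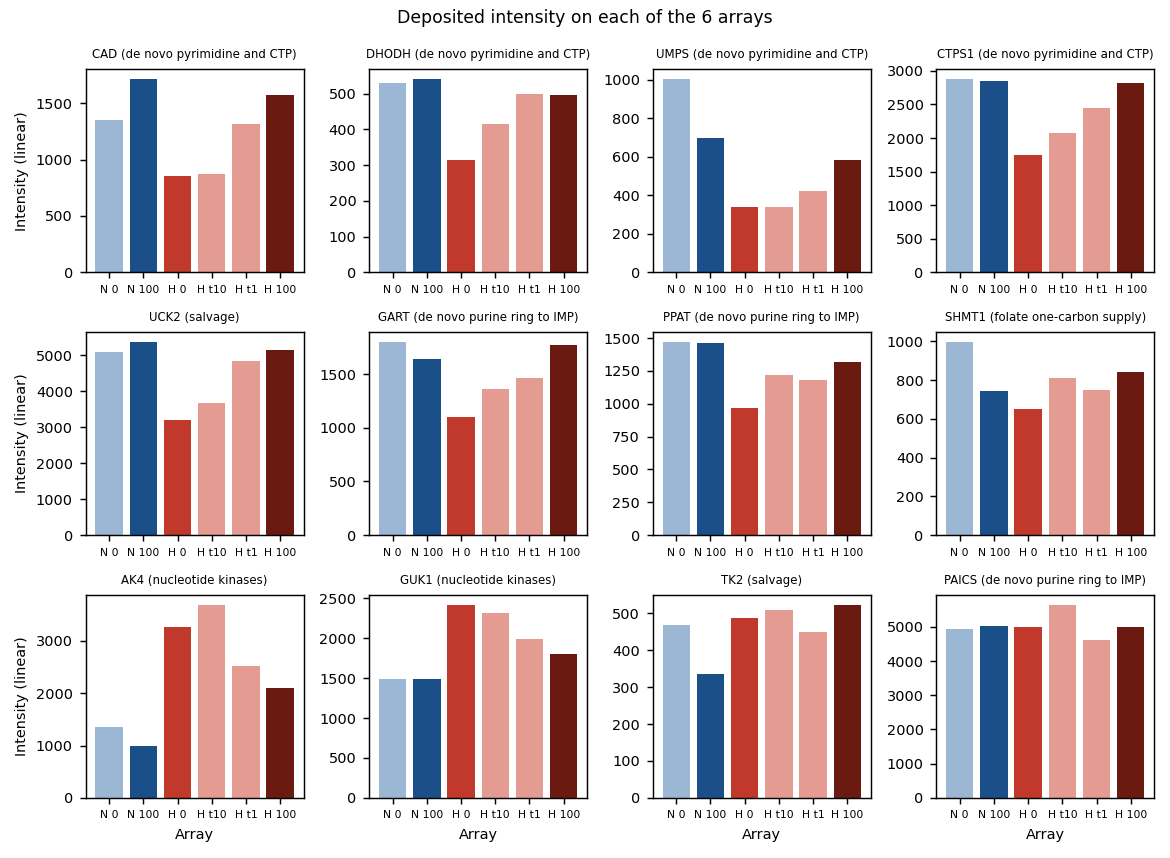
Deposited intensity (linear axis from 0) of 12 genes on each of 6 arrays: N is normoxia, H hypoxia, 0 DMSO, 100 is 100 nM, and t10 and t1 are the arrays titled 10 nM and 1 nM. Each bar is 1 array without error bars; CAD, DHODH, CTPS1 and UCK2 dip on the hypoxic DMSO array, AK4 and GUK1 peak in hypoxia, and PAICS stays between 4628 and 5655.

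Among the 6 genes that build the purine ring the differences ran in the same direction, except for PAICS, and were smaller (median -0.53 for hypoxia and 0.36 for 100 nM in hypoxia). GART, a protein with 3 activities of the pathway, was at 1800 and 1640 in normoxia without and with 100 nM, and at 1101, 1362, 1465 and 1767 in hypoxia with DMSO, on the arrays titled 10 nM and 1 nM and with 100 nM. PPAT, the amidotransferase that commits PRPP to purines, was at 1472 and 1463, and at 965, 1219, 1182 and 1321. For both genes hypoxia with DMSO gave the lowest intensity and 100 nM the highest within hypoxia (log2 differences 0.68 and 0.45). PFAS, ADSL and ATIC had log2 differences of -0.51, -0.55 and -0.37 for hypoxia and of 0.30, 0.33 and 0.39 for 100 nM in hypoxia, all under 1.5-fold. PAICS, which carries out adjacent steps of the same pathway, was at 4953, 5030, 5005, 5655, 4628 and 4999 on the arrays in that order, with differences of 0.01 for hypoxia and -0.0017 for 100 nM in hypoxia. PAICS thus stayed level while its divergently transcribed neighbour PPAT was 1.5-fold lower.

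Most PRPP, guanine nucleotide and folate genes differed less than the median ring gene, for hypoxia and for 100 nM in hypoxia. The exceptions were PRPS1 and SHMT1. PRPS1 and PRPS2 make PRPP. PRPS1 was at 3815 and 3806 in normoxia and at 2680, 3031, 3651 and 3793 in hypoxia, which is -0.51 for hypoxia and 0.50 for 100 nM and just under the threshold, whereas PRPS2 (-0.22 and 0.09) stayed between 3860 and 4636. Of the enzymes that turn IMP into guanine nucleotides, IMPDH1, IMPDH2 and GMPS were within 0.30 in all 4 main comparisons. GMPS, for example, ranged from 3627 in hypoxia with DMSO to 4454 in normoxia with DMSO. Of the folate enzymes that supply carbon units, the cytosolic SHMT1 was at 998 and 746 in normoxia and at 653, 812, 748 and 841 in hypoxia (-0.61 for hypoxia, 0.37 for 100 nM in hypoxia and -0.42 in normoxia). MTHFD1 was at 2798 and 2910 in normoxia and at 2292, 2387, 2754 and 2846 in hypoxia. The mitochondrial MTHFD1L differed by at most 0.08 in these comparisons.

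The enzymes of deoxynucleotide and thymidylate synthesis had differences under 1.5-fold in all 4 main comparisons. RRM1 and RRM2, the subunits of ribonucleotide reductase, had log2 differences of -0.18 and -0.14 for hypoxia and of 0.08 and 0.26 for 100 nM in hypoxia. TYMS, thymidylate synthase, was at 4337 and 4234 in normoxia and at 3956, 4265, 3993 and 4249 in hypoxia. DUT, which hydrolyses dUTP, differed by -0.31 and 0.41. DTYMK, thymidylate kinase, was highest in normoxia with DMSO (1608) and between 1086 and 1215 on the other 5 arrays, so it was low with hypoxia, with 100 nM in normoxia (-0.51) and with both. Its 2 probe sets hold the same values.

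Salvage genes other than UCK2 were under 1.5-fold between the DMSO arrays and with 100 nM. The purine salvage enzymes HPRT1 and APRT had differences of 0.03 and 0.10 for hypoxia and of 0.07 and 0.23 for 100 nM in hypoxia, and DCK, deoxycytidine kinase, had -0.34 and 0.17. The cytosolic thymidine kinase TK1 had a log2 difference of 0.15 for hypoxia, and of -0.30 for 100 nM both in normoxia and in hypoxia. TK2, its mitochondrial counterpart, was at 469 and 335 in normoxia without and with 100 nM and at 487, 511, 449 and 524 in hypoxia. The normoxic array with 100 nM was its low value, which gave a log2 difference of 0.64 between hypoxia and normoxia with 100 nM.

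AK4 and GUK1 ran the other way. AK4, an adenylate kinase of the mitochondrial matrix, was at 1354 and 987 in normoxia without and with 100 nM, and at 3257, 3692, 2516 and 2097 in hypoxia with DMSO, on the arrays titled 10 nM and 1 nM and with 100 nM. All 4 hypoxic arrays were above both normoxic arrays. The log2 difference for hypoxia was 1.27 with DMSO and 1.09 with 100 nM on both arrays, and 100 nM gave -0.64 in hypoxia and -0.46 in normoxia. Its second, dimmer probe set gave 0.82 and 0.86 for hypoxia and -0.64 and -0.68 for the compound. The pair disagreed on the array titled 10 nM, where the brighter one gave 0.18 and the dimmer one -0.27 against the hypoxic control. AK4 has processed pseudogenes in the genome, and which copy each probe set matches was not tested. GUK1, guanylate kinase, was at 1487 and 1493 in normoxia and at 2421, 2315, 1987 and 1799 in hypoxia (log2 difference 0.70 for hypoxia, -0.43 for 100 nM in hypoxia and 0.01 in normoxia). CMPK1 and NME2, kinases of mono- and diphosphates, were level, with NME2 between 8296 and 8812. The 4 probe sets of NME2 differed from each other by little, and the part of the near-identical NME1 in these intensities was not tested.

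Further contrasts were hypoxia against normoxia with 100 nM, 100 nM against DMSO in normoxia, and the lower doses in hypoxia. Hypoxia against normoxia with 100 nM shares no array with the same contrast with DMSO. Between the 2 arrays with 100 nM, a 1.5-fold difference was seen in AK4 and TK2 only, both higher in hypoxia (2 of 34, against 0.972% of all genes), and 0 of 34 were lower (0.749% of all genes). AK4 alone passed 2-fold (0.147% of all genes) by its brighter probe set, while its dimmer one gave 0.86. Of the 8 genes that were 1.5-fold lower in hypoxia with DMSO, all 8 were within 1.5-fold on this pair. They lay between -0.26 and 0.17 with a median of -0.10. Nearly all genes were within 1.5-fold on this closest pair (0.749% lower and 0.972% higher), so this does not set the 8 apart. In normoxia 100 nM moved 0 of 34 genes by 1.5-fold in either direction (4.55% of all genes were lower and 1.9% higher), and the median was -0.03. The lower doses differed from the hypoxic DMSO array by 1.5-fold in 0 genes on the array titled 10 nM (1.06% of all genes higher, 3.2% lower) and in 3 genes on the array titled 1 nM, CAD, DHODH and UCK2, all higher (2.05% of all genes higher, 2.54% lower). UCK2 was under 1.5-fold there after quantile normalization (0.57) and after centring each array on its median (0.57).

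**Figure D3:**
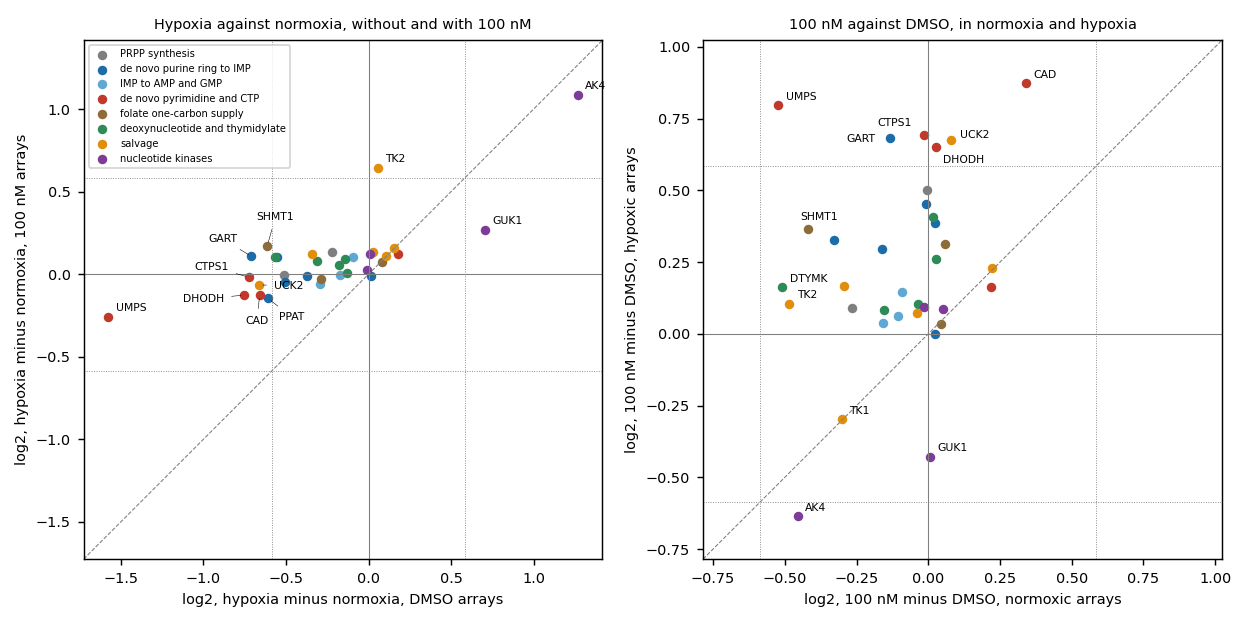
Left, log2 difference between hypoxia and normoxia for 34 genes on the DMSO arrays (x axis) and on the arrays with 100 nM (y axis); right, log2 difference between 100 nM and DMSO in normoxia (x axis) and in hypoxia (y axis). Each point is a gene coloured by role, the axes of a panel share no array, dotted lines mark 1.5-fold and the dashed line marks equal values; UMPS falls from -1.58 to -0.26 in size on the left, while AK4 stays near the dashed line (1.27 and 1.09).

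Promoter sequence of 5 genes is shown because they carry the main differences: UMPS, CAD and DHODH as genes lower in hypoxia, AK4 as the gene higher in hypoxia, and the stretch between PPAT and PAICS as neighbours that differed. The sequences are from RefSeq (GRCh38.p14) and end at the base before the annotated start, and capitals mark ACGTG on either strand, the core letters of many hypoxia response elements, which also lie within the MYC site CACGTG. The upstream bases of UMPS (chr3:124730202-124730451, plus strand), CAD (chr2:27217184-27217368, plus strand, without the bases of a neighbouring gene), DHODH (chr16:72008494-72008743, plus strand) and AK4 (chr1:65147302-65147551, plus strand) are given first, and the stretch between the start of PPAT and a start of PAICS (chr4:56435616-56435751) is written on the minus strand, that of PPAT.
UMPS: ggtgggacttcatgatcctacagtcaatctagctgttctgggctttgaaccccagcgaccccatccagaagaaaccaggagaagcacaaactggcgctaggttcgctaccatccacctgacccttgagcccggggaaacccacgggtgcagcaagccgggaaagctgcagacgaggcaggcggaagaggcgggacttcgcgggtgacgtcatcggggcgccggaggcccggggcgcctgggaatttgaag
CAD: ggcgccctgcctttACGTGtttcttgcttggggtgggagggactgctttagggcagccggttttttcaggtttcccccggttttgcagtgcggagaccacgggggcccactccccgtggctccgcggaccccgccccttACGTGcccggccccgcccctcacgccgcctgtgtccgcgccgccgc
DHODH: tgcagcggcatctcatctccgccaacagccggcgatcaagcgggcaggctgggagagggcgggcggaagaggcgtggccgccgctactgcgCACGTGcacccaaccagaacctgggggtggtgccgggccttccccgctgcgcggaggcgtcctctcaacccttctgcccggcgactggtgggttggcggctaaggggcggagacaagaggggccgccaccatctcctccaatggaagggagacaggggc
AK4: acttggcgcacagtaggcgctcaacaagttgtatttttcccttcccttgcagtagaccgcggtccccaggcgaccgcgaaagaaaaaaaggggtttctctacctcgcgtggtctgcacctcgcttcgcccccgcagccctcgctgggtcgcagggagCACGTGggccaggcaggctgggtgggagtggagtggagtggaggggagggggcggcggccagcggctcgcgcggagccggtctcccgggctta
PPAT: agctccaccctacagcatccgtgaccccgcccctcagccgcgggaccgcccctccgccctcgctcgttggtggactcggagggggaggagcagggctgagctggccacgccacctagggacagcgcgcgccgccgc

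These upstream bases hold the letters at 2 places for CAD and at 1 place each for DHODH and AK4, where they are part of CACGTG, and at 0 places for UMPS and the stretch between PPAT and PAICS. Promoter windows of 300 bases, 250 before and 50 after the start, were at hand for 32 of the 34 genes. ACGTG on either strand was in a window of 16 of these 32 genes, against 24.9% of all genes with a window, and in 4 of the 8 genes that were lower in hypoxia. CACGTG, which contains ACGTG, was in a window of 8 of the 32 (ATIC, DCK, DHODH, MTHFD1, MTHFD1L, PAICS, PPAT and AK4), against 8.77% of all genes. For PPAT and PAICS it lay in their windows but outside the stretch shown. GCGTG on either strand was in 24 of the 32 against 40.6%. The windows of these genes were richer in G and C, with a median of 68.3% against 58.7% for all windows. A gene could have several windows, with 53 for these 32 genes against 35116 for all 27305 genes. By window, the share with ACGTG was 39.6% against 21.4%. The part of base content and of window number in the shares was not tested.

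Genes that feed or drain the pathway were counted in the same way, against 11% of all genes lower and 8.9% higher in hypoxia, and 5.7% lower and 4.97% higher with 100 nM in hypoxia. In hypoxia 3 of 11 measured genes of serine and carbon unit supply were lower by 1.5-fold or more (median -0.24). These were PSAT1 and PSPH, enzymes of serine synthesis, and SLC25A32, the mitochondrial folate carrier, all past 2-fold. With DMSO, PSAT1 had 4119 in normoxia and 1170 in hypoxia, and with 100 nM it had 2252 and 1999. PSPH was at 1128 and 385 with DMSO and at 504 and 408 with 100 nM, and SLC25A32 at 2851 and 906 with DMSO and at 1633 and 1277. All 3 were also at least 1.5-fold lower with 100 nM in normoxia, as were 4.55% of all genes. In that comparison 0 of the 5 pyrimidine genes passed that size, which is near the share of all genes, with UMPS at -0.52.

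Of the 8 measured genes of the pentose phosphate route to PRPP, RPIA, which makes ribose 5-phosphate, was lower in hypoxia (416 to 230, log2 difference -0.85) and higher with 100 nM (383, log2 difference 0.73), and PGD had 0.15 with 100 nM. Of 17 other interconversion genes 1 was 1.5-fold lower in hypoxia and 2 higher. The counts of both lists in hypoxia were near the shares of all genes. NME6 was the lower gene (-0.97 in hypoxia, 0.81 with 100 nM in hypoxia), and CDA, cytidine deaminase (0.92 and -0.58), and ADSS1, the paralog of the dropped ADSS2, were the higher ones. ADSS1 was at 678 and 1635 with DMSO and at 513 and 1136 with 100 nM, in normoxia and hypoxia, so that like AK4 it kept a hypoxic difference of 1.15 with the compound. Of 25 genes of breakdown and transport 7 were lower in hypoxia and 2 higher, and with 100 nM 3 were higher and 1 lower, so that the higher genes in hypoxia and the lower gene with 100 nM were near the share of all genes. Among them SLC29A1, a nucleoside transporter, was at 2939 and 1139 with DMSO and at 2059 in hypoxia with 100 nM. PNP, a purine salvage phosphorylase, was at 3444, 2084 and 3619 on the same arrays, and SAMHD1, which cleaves deoxynucleotides, at 846, 414 and 712. NT5DC2 was at 1715 and 635 with DMSO and already at 765 in normoxia with 100 nM.

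Markers of S phase and proliferation moved in the same direction as the nucleotide genes, and their part in the differences was not tested. In hypoxia 11 of 22 such genes were lower by 1.5-fold or more (median -0.52) and 8 were higher with 100 nM in hypoxia (median 0.39), against 11% and 4.97% of all genes, with PCNA at 2448, 1404 and 2307 in normoxia with DMSO, hypoxia with DMSO and hypoxia with 100 nM. The largest were POLE2 (-2.09 and 1.19), CDC6 (-1.17 and 0.90) and CCNE2 (-1.01 and 0.82), genes of DNA replication and S phase entry. MKI67 differed by -0.26 and 0.21. The mRNA of MYC was at 5878, 4963 and 6813 on these 3 arrays. Of 10 genes of the MYC network 3 were at least 1.5-fold higher in hypoxia and 0 lower, against 8.9% and 11% of all genes. With 100 nM in hypoxia 3 were lower and 0 higher, against 5.7% and 4.97%. Among the higher genes in hypoxia were the MYC antagonists MXI1 (515, 1460 and 572) and MXD1 (223, 584 and 379). MXD1 was also higher with 100 nM in normoxia (359, log2 difference 0.69). The dim MYCL differed by -0.82 with 100 nM in hypoxia. The part of MYC in the differences was not tested. The HIF target ADM was at 479, 5686 and 539, and at 5816 on the array titled 10 nM and 3363 on the array titled 1 nM. Against hypoxia with DMSO the median of 5 HIF targets was 0.03 on the former and -0.93 on the latter. Of markers of other cells 3 of 4 blood, 3 of 3 endothelial and 1 of 4 fibroblast genes were below the median probe set, while CD68, a macrophage marker, was between 3157 and 4763, and the summed intensity over the arrays ranged from 3278 to 4917 for blood, from 137 to 184 for endothelial and from 592 to 783 for fibroblast markers.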

How the data were processed

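The authors deposited 1 table of intensity values on a linear scale for the probe sets of Affymetrix Human Gene 1.0 ST arrays, with medians between 128 and 140. The methods name background correction with MAS 5.0 and Expressionist, the submitters' processing notes name RMA. The genome build behind the probe sets is not given in the sources used here. The log2 of each intensity was used, with nothing added and no filter. The platform annotation gave 1 symbol for 19460 probe sets, several for 1754 and no entry for 12083. Symbols were checked against RefSeq (GRCh38.p14), and the brightest by mean log2 stood for each gene. Differences are between single arrays, so nothing was tested, and the number of arrays limits the precision. Members with a 1.5-fold difference in any of 4 comparisons, or the brightest of a role, are given on all arrays. Other genes are named past 2-fold, or as the 2 with the largest difference at 100 nM in hypoxia per list. PCNA, MKI67, MYC and ADM serve as checks. The members and lists were chosen with earlier results of these data known. Only the 1.5-fold rule was run on simulated data, with added differences well past it and less noise than between most arrays here. That run could hardly fail, so it does not bear on the results. Alternatives were quantile normalization, centring on the median, 32 added before log2, the mean of probe sets, brighter genes only, and other arrays. Python 3.11.15, numpy 2.4.6, pandas 2.3.3 and matplotlib 3.10.9 were used.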

Additional observations from a re-analysis of the deposited data

Results flagged for a closer look

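With 100 nM of the compound, UMPS and SHMT1 differed from DMSO in opposite directions in hypoxia and normoxia, each by more than the limit within which 95% of the brighter genes lay in the closest pair of arrays. For UMPS the log2 difference was 0.80 in hypoxia and -0.52 in normoxia, and for SHMT1 it was 0.37 and -0.42. The limit was 0.36, so SHMT1 passed it in hypoxia by little, at 1.29-fold. In the next closest pair of arrays the limit was 1.36-fold. After quantile normalization SHMT1 was at 0.26 and -0.33, below 0.36 in size, and UMPS at 0.74 and -0.43. The difference between normoxia and hypoxia was not tested, since each value comes from 2 arrays.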

How the results depend on the processing

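The direction of the medians of the 34 genes and of every gene past 1.5-fold was the same under all alternatives run. Quantile normalization left 5 genes in place of 8 at least 1.5-fold lower in hypoxia (PPAT, CAD and SHMT1 at -0.48, -0.51 and -0.46), and 1 in place of 2 higher in hypoxia with 100 nM on both arrays (TK2 at 0.58). Centring each array on its median gave 12 in place of 8 lower genes in hypoxia, where it also moved the median of all genes from 0.08 to -0.04, and left 0 in place of 1 lower with 100 nM in hypoxia (AK4 at -0.55). The mean of probe sets put AK4 at 0.98 between the arrays with 100 nM, so 0 genes were 2-fold higher. Using the array titled 10 nM as the hypoxic control left 2 genes lower in hypoxia and 2 higher with 100 nM, in both cases CAD (-0.64 and 0.85) and UMPS (-1.57 and 0.79). With the normoxic 100 nM array in place of normoxia with DMSO 6 were lower in hypoxia, without GART (-0.57) and SHMT1 (-0.19). On the array titled 1 nM 2 in place of 3 genes were higher under both quantile normalization and centring, without UCK2 (0.57 in both). Adding 32 changed no count. Using brighter genes only could change none, since all 34 genes were brighter than the median probe set. Shares of all genes were counted in the main setting only, so the counts under the alternatives have none beside them. The causes of these changes were not tested. No paired analysis was possible because each condition has 1 array.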
